A study of Caenorhabditis elegans with 2 samples.

Results

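MicroRNA genes encode short regulatory RNAs, and the 261 nuclear genes of this biotype in the WBcel235 models of Caenorhabditis elegans were scored for ZTF-18, a zinc finger protein. They were taken by biotype alone from 46890 nuclear genes of all classes, without use of any binding value. The choice of this class was made with earlier results of these data known. Chromatin came from whole young adult hermaphrodites of strain OP496, which stably express ZTF-18 with a GFP-FLAG tag at its C-terminus, and was precipitated with an antibody to GFP. The worms were collected 64 hours after release from starvation as first-stage larvae. Both samples, called biological replicates in the labels, belong to this single group, so there is no contrast of conditions and no test over samples. The promoter that drives the tagged protein is not given in the sources used here, and signal from whole animals cannot be assigned to a tissue. A microRNA gene is called bound below when a peak of the authors' reproducibility-thresholded list had its summit in a window around the annotated 5′ end, reaching 1000 bp upstream and 200 bp into or past the gene. The deposited peak signal was made against a control, and its scale is not stated, so it serves here to rank peaks within a list, rank 1 being the strongest. Values given for a replicate are those of its own peak with a summit within 100 bp of the thresholded summit, and signals are not compared between lists. Read depth is unknown from these files.

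MicroRNAs are cut from longer primary transcripts. The nuclear enzyme Drosha releases a hairpin, Dicer trims it to a duplex, and an Argonaute protein keeps 1 strand, whose seed near the 5′ end pairs with target messages. Genes with the same seed form a family and can act on the same targets. In C. elegans microRNAs time larval cell fates, as lin-4 and let-7 do, and others are needed in the embryo. For 260 of the 261 genes the annotation gives a mature product, while the annotated gene is in most cases only the hairpin. The start of the primary transcript can therefore lie upstream of the 5′ end used here.

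Many bound genes belonged to a few families, which were listed with earlier results of these data known. Family members in a cluster can share a summit, as the 7 bound genes of the mir-35 family (1 summit) did. The 4 genes of the mir-229 cluster shared 1 as well. Mature sequences are shown by family. Each was read from the RefSeq WBcel235 genome at the span annotated by Ensembl, 5′ to 3′, and capitals mark the seed, bases 2 to 8. All 6 genes of the mir-51 family, which is broadly expressed and essential in the embryo, were bound, though fewer were at stricter settings.
mir-51: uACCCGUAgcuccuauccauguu
mir-52: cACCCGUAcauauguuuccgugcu
mir-53: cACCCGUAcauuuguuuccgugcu
mir-54: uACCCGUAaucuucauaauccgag
mir-55: uACCCGUAuaaguuucugcugag
mir-56: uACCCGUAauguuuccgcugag

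Of the 8 genes of the mir-35 family, which acts in early embryos and is required for their survival, 7 were bound, and mir-42 was not.
mir-35: uCACCGGGuggaaacuagcagu
mir-36: uCACCGGGugaaaauucgcaug
mir-37: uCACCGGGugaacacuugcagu
mir-38: uCACCGGGagaaaaacuggagu
mir-39: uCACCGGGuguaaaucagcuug
mir-40: uCACCGGGuguacaucagcuaa
mir-41: uCACCGGGugaaaaaucaccua
mir-42: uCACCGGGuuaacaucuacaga

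All 4 genes of the cluster that holds mir-229 and mir-64 were bound, and the sequences of 3 are shown. A further gene with their seed on one of its mature products, mir-63 on the X chromosome, was not.
mir-229: aAUGACACugguuaucuuuuccaucg
mir-64: uAUGACACugaagcguuaccgaa
mir-66: cAUGACACugauuagggauguga

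From families with a single bound member, mir-241 and mir-80 were bound. The let-7 family genes mir-48, let-7 and mir-84, with the seed of mir-241, were not, and nor was mir-58a of the mir-80 family, whose seed is close to that of mir-80 but not the same.
mir-241: uGAGGUAGgugcgagaaauga
mir-48: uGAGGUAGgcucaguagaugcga
let-7: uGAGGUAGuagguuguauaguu
mir-84: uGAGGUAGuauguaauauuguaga
mir-80: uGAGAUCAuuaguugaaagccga
mir-58a: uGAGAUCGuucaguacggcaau

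In all, 39 of 261 microRNA genes (14.9%, exact Clopper-Pearson 95% interval 10.8 to 19.9, counting error only) were bound, against 6.64% of the 46629 other nuclear genes. The share was 8.18% for protein-coding genes and 8.73% for the large class of other non-coding RNA genes. It was 24.8% for small nuclear RNA genes, 35.3% for small nucleolar RNA genes and 72.5% for transfer RNA genes. The other nuclear genes include 15363 piRNA genes, of which 0.814% were bound, and these lower the share of 6.64%. These shares are given as a description without a test. Neighbouring genes can share a summit, and the 39 genes rested on 30 summits, of which 3 served 14 genes. The 30 summits had pooled signals from 93.7 to 333.2, with a median of 135.8 against 154.0 over all 2449 nuclear thresholded peaks. Their ranks ran from 439 to 2462 of 2465, so every peak stronger than rank 439 lay away from these windows, and 21 of 30 ranked beyond 1232.

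**Figure D1:**
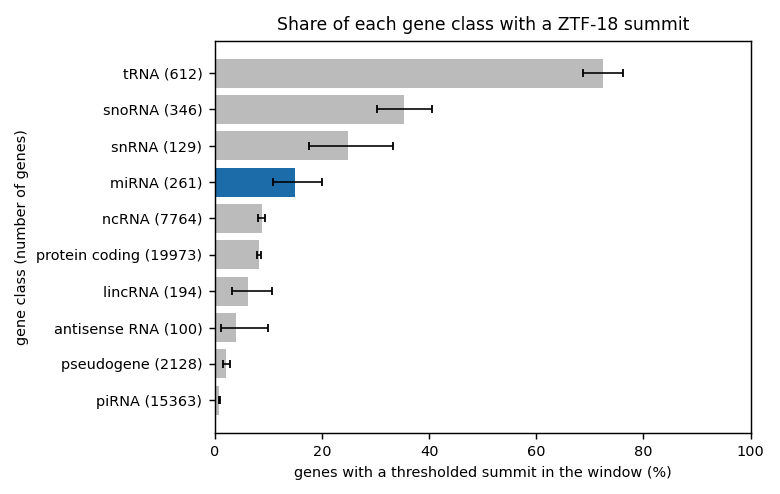
Bars give the percentage of genes of each annotated class with a thresholded ZTF-18 summit in the window, with the number of genes in brackets and exact 95% intervals as error bars. The microRNA bar stands at 14.9%, above protein-coding genes at 8.18% and below small nucleolar RNA genes at 35.3%.

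The mir-51 family carried the strongest summit found at any microRNA gene. At mir-51 (chrIV:11026013-11026112, minus strand) the summit lay 76 bp upstream of the hairpin, with a pooled signal of 333.2. Replicate 1 gave a signal of 170.4 at rank 546, and replicate 2 gave 168.5 at rank 386. The nearest annotated 5′ end, 31 bp away, was that of the non-coding RNA gene F36H1.17 on the same strand. The related gene mir-53, upstream of mir-51 on the same strand, had its own summit 94 bp upstream of its 5′ end. Its pooled signal was 122.0, with 49.8 (rank 3141) in replicate 1 and 72.5 (rank 1212) in replicate 2. The peak at mir-53 was thus outside the 2465 strongest of replicate 1 and well inside those of replicate 2.

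The other members of the family lay at 2 further loci. Upstream of mir-52 on chromosome IV there were 2 summits, 265 and 505 bp from the 5′ end, with pooled signals of 140.2 and 97.8. The first ranked 2101 in replicate 1 and 950 in replicate 2. The second ranked 2095 in replicate 1 and had no summit within 100 bp in the relaxed list of replicate 2. The genes mir-54, mir-55 and mir-56 form a cluster on the X chromosome, within the span of F09A5.3 on the opposite strand, and shared a summit 273 bp upstream of mir-54, the first hairpin of the cluster. Its pooled signal was 129.8, with 77.1 (rank 1675) in replicate 1 and 54.4 (rank 1821) in replicate 2. The hairpin mir-55b, annotated antisense to mir-55, had a different summit, 447 bp upstream of its own 5′ end on the far side of the cluster, with a pooled signal of 146.4. Of the 5 summits of this family, none lay in the promoter window of a protein-coding gene, so these signals were not counted at such a gene. Those of mir-51, mir-52 and the X cluster did lie in windows of other non-coding RNA genes with nearer 5′ ends. At mir-52 these were 123 and 54 bp from its stronger and weaker summits, and at the X cluster F09A5.11 was 96 bp away. The 101 bases centred on 4 of these summits are printed on the strand of the microRNA, with the 21 central bases in capitals.
mir-51 (chrIV:11026138-11026238, minus strand): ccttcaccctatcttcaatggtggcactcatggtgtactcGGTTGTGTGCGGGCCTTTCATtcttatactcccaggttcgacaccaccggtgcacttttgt
mir-53 (chrIV:11027735-11027835, minus strand): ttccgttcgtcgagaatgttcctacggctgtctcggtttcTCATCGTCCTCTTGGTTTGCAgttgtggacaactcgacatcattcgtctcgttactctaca
mir-52, the stronger of its summits (chrIV:14033693-14033793, plus strand): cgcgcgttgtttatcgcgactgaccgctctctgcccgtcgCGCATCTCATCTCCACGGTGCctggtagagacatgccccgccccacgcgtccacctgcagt
mir-54, mir-55 and mir-56 (chrX:13145317-13145417, minus strand): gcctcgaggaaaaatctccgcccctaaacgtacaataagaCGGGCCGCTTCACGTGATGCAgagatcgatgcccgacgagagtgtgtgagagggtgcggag

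The bound members of the mir-35 family are packed into 1 cluster on chromosome II, and a single summit accounted for their calls. It lay 212 bp upstream of mir-35 (chrII:11537608-11537704, plus strand) and 912 bp upstream of mir-41, at the end of the cluster. The pooled signal was 94.8 at rank 2423, close to the foot of the thresholded list. Replicate 1 gave 75.5 at rank 1722, with its summit 97 bp away, and replicate 2 gave 34.2 at rank 3797. This summit was therefore among the 2465 strongest peaks in replicate 1 alone. With 1 summit behind 7 of the 39 calls, these genes are not independent. The eighth member, mir-42, shared a cluster with mir-44 and had a pooled relaxed peak of signal 46.0 at rank 7278. The sequence around the summit follows, again with the 21 central bases in capitals.
mir-35 to mir-41 (chrII:11537346-11537446, plus strand): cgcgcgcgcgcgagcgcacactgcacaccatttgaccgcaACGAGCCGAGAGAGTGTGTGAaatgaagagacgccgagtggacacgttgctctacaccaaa

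The cluster of mir-229, mir-64, mir-65 and mir-66 lies in an intron of gcn-1, on the same strand, on chromosome III. gcn-1 encodes a relative of the translational control factor GCN1. The shared summit was 206 bp upstream of mir-229 and 862 bp upstream of mir-66, inside gcn-1 and outside the promoter window of gcn-1 or any other protein-coding gene. The pooled signal was 165.2, with 94.1 (rank 1240) in replicate 1 and 57.2 (rank 1696) in replicate 2. Both replicates thus placed it among their strongest 2465 peaks. The annotated 5′ end nearest to the summit was that of mir-229.
mir-229, mir-64, mir-65 and mir-66 (chrIII:2172196-2172296, plus strand): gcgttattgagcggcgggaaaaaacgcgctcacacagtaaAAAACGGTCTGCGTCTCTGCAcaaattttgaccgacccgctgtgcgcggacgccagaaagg

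In the let-7 family, whose members time the larval to adult transition, 1 of 7 genes was bound. This was mir-241, which acts with mir-48 and mir-84 in the earlier larval stages. Its summit lay 520 bp upstream, with a pooled signal of 133.1, a replicate 1 rank of 1772 and a replicate 2 rank of 1727. The neighbouring mir-48 on the same strand had its own pooled peak 175 bp upstream with a signal of 90.3 at rank 2599, just below the list, and ranks of 2383 in replicate 1 and 6045 in replicate 2. At let-7, annotated as a primary transcript of 1732 bp, neither replicate had a relaxed summit in the window. Nor had mir-793, mir-794 or mir-795. In the mir-58 family, related to bantam of Drosophila, mir-80 was bound, as 1 of the 6 genes with its seed. The family was listed by name and held 9 genes in the annotation, which splits mir-58 and mir-2209 into several genes. Of these mir-2209b and mir-2209c do not carry the seed of mir-80 or of mir-58a, and mir-1834, listed as well, was not analysed here. The summit of mir-80 lay 222 bp upstream, outside every protein-coding promoter window, with a pooled signal of 234.2. It ranked 671 in replicate 1 with a signal of 142.5 and 930 in replicate 2 with 86.4, within the strongest 2465 of each. The abundant family member mir-58a had a pooled peak of signal 51.4 at rank 6099, and mir-81 and mir-82 ranked 20085 and 28509. Sequences at the summits of mir-80 and mir-241 are given in the same form.
mir-80 (chrIII:8865539-8865639, minus strand): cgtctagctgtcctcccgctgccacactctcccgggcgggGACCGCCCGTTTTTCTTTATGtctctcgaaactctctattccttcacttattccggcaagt
mir-241 (chrV:14366753-14366853, minus strand): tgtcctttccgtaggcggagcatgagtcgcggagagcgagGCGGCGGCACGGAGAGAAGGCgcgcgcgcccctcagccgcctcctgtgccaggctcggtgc

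Several microRNAs with well-known roles were not bound, and for unbound genes the strongest relaxed peak in the window is given. At lin-4, the founding heterochronic microRNA, the pooled relaxed list held a peak 409 bp upstream with a signal of 52.5 at rank 5868. For lin-4 the strongest peak of replicate 1 (rank 7149) lay elsewhere, 547 bp upstream, and that of replicate 2 (rank 4737) 405 bp upstream. Its seed relative mir-237 had no relaxed summit in any of the lists. The neuronal mir-124 had a pooled peak of rank 5694, 268 bp upstream. The strongest peak of replicate 1 in its window (rank 5660) was 105 bp upstream, and that of replicate 2 (rank 14174) 254 bp upstream. The muscle microRNA mir-1 and lsy-6, which sets the left-right identity of a pair of taste neurons, had no relaxed summit in either replicate. At mir-71, linked to lifespan, replicate 1 had no relaxed peak and replicate 2 had one at rank 3232. In the mir-44 family 0 of 4 genes were bound. Among the 13 conserved or tissue-restricted microRNAs examined as a list, 2 were bound, mir-2 and mir-90. The summit of mir-2 was 406 bp upstream, with a pooled signal of 113.5 and ranks of 2045 and 2340 in replicates 1 and 2. The summit of mir-90 was 310 bp upstream, with a pooled signal of 146.4 and ranks of 1448 and 1519.

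**Figure D2:**
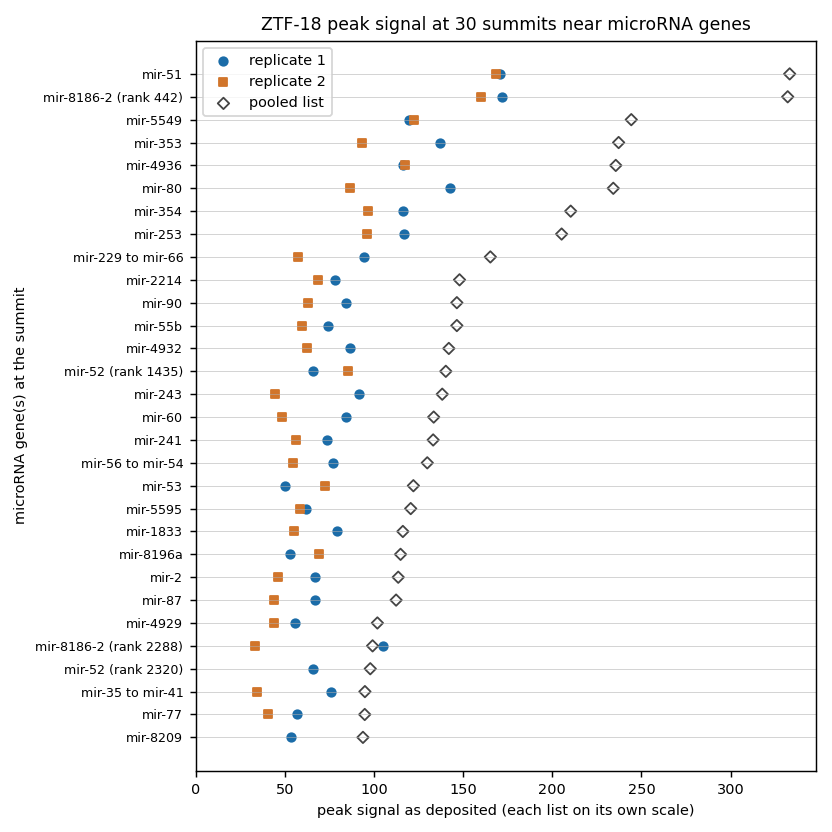
Each line is 1 of 30 thresholded summits near microRNA genes, ordered by pooled rank, with the deposited peak signal of the peak in each replicate and in the pooled list on the x axis. The pooled values run from 333.2 at mir-51 to 93.7 at mir-8209, and a missing square marks a summit with no peak within 100 bp in replicate 2.

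For 15 of the 39 bound genes, the gene's own 5′ end was nearer to a summit than that of any other annotated gene. Besides mir-53, mir-80, mir-90 and mir-229 these were mir-8186-2, mir-5549, mir-4936, mir-2214, mir-60, mir-5595, mir-1833, mir-8196a, mir-87, mir-4929 and mir-8209. The strongest was mir-8186-2, near the left end of chromosome II, with a summit 319 bp upstream and a pooled signal of 332.1. Its ranks were 539 in replicate 1 and 406 in replicate 2. A weaker summit 521 bp upstream had a pooled signal of 99.1, and both lay in the promoter window of gmeb-1, so the 2 genes share this signal. At mir-5549 the summit fell 9 bp inside the hairpin, with a pooled signal of 244.3 and ranks of 855 and 562. That summit also lay in the promoter windows of eef-1A.1, a gene for translation elongation factor 1 alpha, and rfc-4, a gene for a clamp loader subunit. At mir-4936 it fell 62 bp inside, with a pooled signal of 235.6, and also in the promoter window of nduf-9, a gene for a respiratory complex I subunit.

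The other genes of this set were weaker. The summit at mir-2214 was 20 bp upstream, with a pooled signal of 147.9 and ranks of 1636 and 1335. At mir-60, a microRNA of the intestine, it was 127 bp upstream, with a pooled signal of 133.4 and ranks of 1457 and 2185. At mir-5595, antisense to the chromatin remodeller gene nurf-1, it was 130 bp upstream, with 120.5 and ranks of 2301 and 1655. These 3 summits were outside every protein-coding promoter window and among the strongest 2465 peaks of both replicates. So was mir-1833, in an intron of the glutaminyl-tRNA synthetase gene qars-1, with a summit 129 bp upstream, a pooled signal of 116.1 and ranks of 1591 and 1792. The summit of mir-87 was 215 bp upstream with a pooled signal of 112.3, and replicate 2 ranked it 2525, outside its strongest 2465. The summit of mir-8196a, 138 bp downstream, ranked 2868 in replicate 1 and 1311 in replicate 2. At mir-4929 the ranks were 2671 and 2554, outside the strongest in each replicate. At mir-8209 the pooled signal was 93.7 at rank 2462, and replicate 2 had no peak within 100 bp.

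For the remaining genes another annotated 5′ end was nearer to the summit. It was that of a protein-coding gene at 4 summits, another non-coding RNA gene at 7, a small nucleolar RNA gene at 1 and a piRNA gene at 1. For mir-55b it was that of mir-56. The 7 summits nearest to another non-coding RNA gene were those of mir-51, mir-241, mir-2, the mir-35 cluster and the mir-54 to mir-56 cluster, and both of mir-52. The summit of mir-353 had a pooled signal of 237.2 and ranks of 711 and 825 in replicates 1 and 2. It lay 999 bp upstream, at the very edge of the window, and in the promoter windows of its host rpl-24.1 and of rps-10, both ribosomal protein genes. The matching summit of replicate 1 was 38 bp away, and the best peak of that replicate inside the window ranked 3475. The summit of mir-354, 854 bp upstream, had a pooled signal of 210.3 and ranks of 898 and 783, and lay in the promoter windows of ekl-4 and of its host rps-20, another ribosomal protein gene. The summit of mir-253, 322 bp upstream, had a pooled signal of 205.2 and ranks of 894 and 795, and was 16 bp from the 5′ end of its host F44E7.5. At mir-4932 (141.9) the summit was 51 bp from the 5′ end of klp-16, a kinesin gene, and at mir-77 (94.7) 12 bp from that of the small nucleolar RNA gene T21B4.20. The summit of mir-243 (138.2), a microRNA known to load into the Argonaute RDE-1, was 735 bp upstream, inside the host gene R08C7.12. Thus a summit counted for a microRNA gene can belong by distance to a neighbour.

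Seen over all summits, 9 of 30 lay in a protein-coding promoter window, against 1368 of 2449 nuclear thresholded summits (55.9%), or 62.8% of the 2053 not near a transfer RNA gene. The other 21 summits stood at 31 of the 39 bound genes. The 30 summits were chosen for lying in microRNA windows, and most such windows are clear of protein-coding promoter windows. Of 87 microRNA genes whose window overlapped one, 11 (12.6%) were bound, and of the 174 others 28 (16.1%). The share of 9 of 30 thus depends on where the windows lie and was not tested. Of 76 microRNA genes inside a protein-coding gene on the same strand, 15 (19.7%) were bound, and for 3 of these 15 (mir-353, mir-354 and mir-253) the summit also lay in the host's promoter window. Promoters of 6 of the 69 distinct host genes (8.70%) were bound, beside 8.18% of all protein-coding genes. Outside host genes on either strand 10 of 122 microRNA genes (8.20%) were bound. Counted with non-coding RNA hosts as well, 19 of 95 genes with a host on the same strand and 10 of 44 with a gene on the opposite strand were bound. Clusters, defined as neighbours on 1 strand with 5′ ends within 2000 bp, held 59 genes. Of these 17 (28.8%) were bound, in 5 of 21 clusters, against 22 of 202 genes outside clusters (10.9%). Clustered genes share summits, so the genes are not independent.

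Most summits lay upstream of the hairpins. The strongest summit of 34 of the 39 genes was upstream, at a median of 320.5 bp, and that of 5 genes (mir-4932, mir-4936, mir-5549, mir-8196a and mir-8209) was downstream. There were 11 genes with a summit within 250 bp upstream, 11 from 250 to 500 bp, 6 from 500 to 750 bp and 6 from 750 to 1000 bp. Of those in the last range, mir-40, mir-41, mir-65 and mir-66 were late members of clusters. The window itself reaches 1000 bp upstream and 200 bp downstream, so most summits falling anywhere in it would count as upstream. The 39 genes also include 14 on 3 shared summits.

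**Figure D3:**
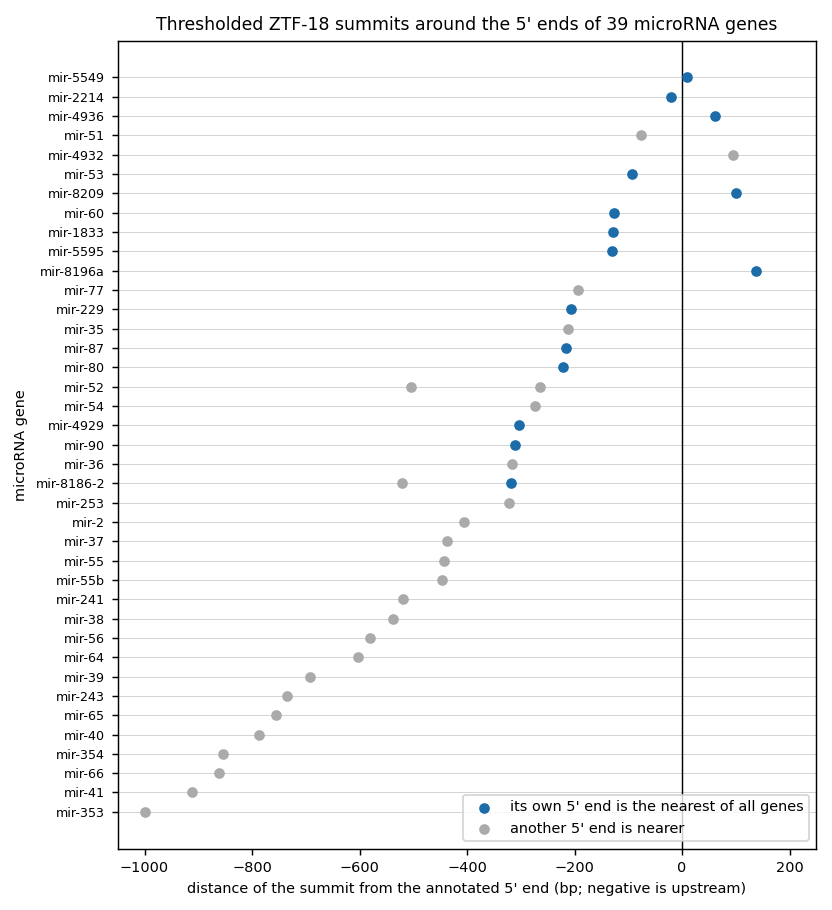
Points give the distance of each thresholded summit from the annotated 5′ end of each of the 39 bound microRNA genes, in bp, with upstream negative. Blue points mark genes whose own 5′ end was the nearest of all genes (15 genes), and these lie from 319 bp upstream at mir-8186-2 to 138 bp downstream at mir-8196a.

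The calls rest on peaks seen in both libraries to differing degrees. Each of the 30 summits had a relaxed peak of replicate 1 within 100 bp and 28 had one of replicate 2, the exceptions being mir-8209 and the weaker summit of mir-52. Among the 2465 strongest peaks of each replicate, 25 were matched in replicate 1, 22 in replicate 2 and 20 (66.7%) in both. Over the other nuclear summits of the same range of ranks, 1259 of 1994 (63.1%) were matched in both. Taken alone, the 2465 strongest peaks of replicate 1 put a summit at 35 of the 261 genes, against 6.41% of other genes, and those of replicate 2 at 27 genes, against 6.49%. In the relaxed lists, which hold background by design, 113 microRNA genes (43.3%) had a summit in replicate 1, against 27.1% of other genes. The number was 116 (44.4%) in replicate 2, against 27.6%. A relaxed summit in both replicates was found at 86 microRNA genes (33.0%), against 19.1% of other genes, and 118 had none in either. In each of these comparisons the other genes include the many piRNA genes, which were seldom bound in the thresholded list.

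**Figure D4:**
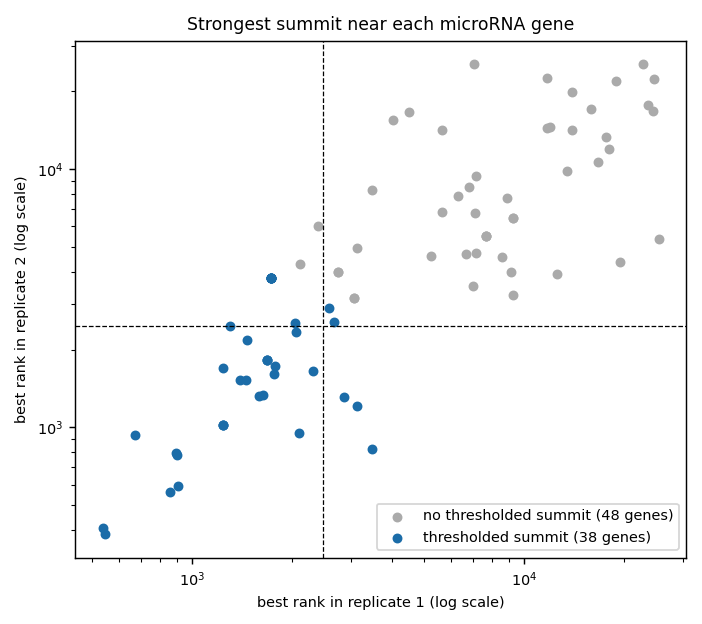
Each point is 1 of the 86 microRNA genes with a relaxed summit in the window in both replicates, placed by the best rank in replicate 1 (x axis, log scale) and replicate 2 (y axis, log scale). Dashed lines mark rank 2465, and the 38 bound genes reach ranks of 539 in replicate 1 and 386 in replicate 2.

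At the foot of the list, values just inside and just outside lay close together. The weakest summits inside were those of mir-8209 (pooled signal 93.7), mir-77 (94.7) and the mir-35 cluster (94.8). The strongest peaks outside were those shared by mir-61 and mir-250 (92.0, rank 2535), that of mir-4934 (91.3, rank 2559), and that shared by mir-239a and mir-239b (90.4, rank 2595), followed by mir-48. For mir-4934 the rank was 2107 in replicate 1 and 4275 in replicate 2. At the edges of the window, mir-235 had a thresholded summit 1146 bp upstream (pooled signal 214.5). The summit of mir-8186-2 lay 378 bp downstream of mir-8186-1, and mir-1829c had one 222 bp downstream (119.9).

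Transfer RNA genes, which many ZTF-18 peaks adjoin, did not lie beside these summits. Of the nuclear thresholded summits 396 (16.2%) were within 150 bp of a transfer RNA gene, and of the 30 at microRNA genes 0 were. The smallest distance was 5917 bp, at mir-8209. These 30 summits were chosen for lying in microRNA windows. How many such windows have a transfer RNA gene near was not counted, so 0 of 30 can depend on where the windows lie and was not tested. A word from the core of the internal B box promoter of transfer RNA genes, GTTCGANNC, was searched on both strands of the 201 bases around each summit. It was present at 279 of the 396 summits near a transfer RNA gene (70.5%) and at 72 of the 2053 others (3.51%). The 2053 include the 30 at microRNA genes, of which 2 (6.67%) held it (mir-51 and mir-4936). In windows of the same length upstream of all 261 microRNA genes it was found at 7 (2.68%). A word from the core of the A box, TGGCNNAGT, was present at 2 of 30 summits (mir-354 and mir-4932), against 5.37% of other nuclear summits. This word marked transfer RNA genes poorly, with 39 of the 396 summits near one (9.85%) and 93 of the 2053 others (4.53%). It was found in 1.92% of the upstream windows. None of the 30 summits held both words. A match is a description of the letters alone. The GC content of the 201 bases had a median of 49.0% at the microRNA summits, ranging from 33.3% to 63.2%, against 42.3% at other nuclear summits away from transfer RNA genes.

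A broad list of genes linked to the microRNA pathway was examined beside the microRNA genes. It holds genes for proteins that make, use or regulate microRNAs, and also more general RNA decay, deadenylase and export genes. Of the 28 genes on the list 10 (35.7%) were bound, against 8.18% of protein-coding genes. The list was chosen with earlier results of these data known, so the 2 shares are a description only, and the difference was not tested. The strongest summits were at cgh-1, a DEAD-box helicase gene of RNA granules (pooled signal 878.2, ranks 223 and 239), at the Argonaute gene alg-5 (670.1, ranks 273 and 277) and at nhl-2, a TRIM-NHL cofactor gene (447.7, ranks 357 and 340). All 3 were stronger than any summit at a microRNA gene in the pooled list. The summit at alg-5 was 819 bp upstream and also lay in the windows of his-67 and his-68, and that of nhl-2 lay in those of tag-340 and F26F4.14. Next came vig-1 (235.9), lin-46 (231.1, in the windows of R186.3 and R186.8 as well) and ain-1, a GW182 gene (183.0). The others were xrn-2, an exonuclease gene that degrades mature microRNAs (131.8), xpo-1, an exportin gene (125.5), the deadenylase gene panl-3 (124.1) and lin-28, whose product blocks let-7 processing (121.3). For lin-28 the ranks were 5284 in replicate 1 and 3067 in replicate 2, so neither placed it among its strongest 2465. The genes for the nuclear cropping enzyme (drsh-1 and pash-1), for Dicer (dcr-1) and for the main microRNA Argonautes (alg-1 and alg-2) were not bound.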

How the data were processed

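The samples were 2 ChIP-seq libraries of whole worms, given by the authors as narrowPeak lists on ce11. The authors deposited a relaxed list of peaks and background for each replicate (26104 and 27612 peaks), 1 for both together (30000) and a thresholded list (2465 peaks) that combines them, per the notes deposited with the samples. For the aligner, caller and threshold no source used here gives a name or value. The peak signal was deposited by the authors, relative to a control. The −log10 q-value the authors deposited was 2.78 at every thresholded peak, so it was not used to rank. The copies on ce10 were not used.

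Genes came from the WBcel235 annotation of Ensembl release 115, the build of ce11. RefSeq symbols of the same span, matched for 260 genes, replaced repeated names and 1 that was a database identifier. Peaks of a replicate were matched to summits within 100 bp. Host genes were protein-coding or ncRNA genes overlapping on the same strand. No test was run, since there is 1 group. The members, gene lists and rules were chosen with earlier results of these data known. Named in full were the 10 strongest bound genes, bound genes whose 5′ end was nearest and bound family members, and the others more briefly. Alternatives changed the window, the peak list, the replicates, the assignment, the transfer RNA distance, the host rule and the cluster distance. The assignment was tested on simulated data, where 61 of 61 planted summits returned. Sequences were read from the RefSeq WBcel235 genome. Analyses used Python 3.11.15, numpy 2.4.6, pandas 2.3.3, scipy 1.17.1 and pysam 0.24.0.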

Additional observations from a re-analysis of the deposited data

How the results depend on the processing

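Of 44 values recomputed with other settings, 31 stayed within 1.5 times the main value and 13 did not. Without replicate 1 or without replicate 2, 27 to 35 genes were bound (27 to 35 also with no transfer RNA gene near), on 24 to 26 summits, with 12 to 15 nearest by their own 5′ end and 15 to 18 outside host genes. With the stronger 1232 thresholded peaks, 12 genes were bound instead of 39, none near a transfer RNA gene (12), on 9 summits instead of 30. Then 5 instead of 15 had the nearest 5′ end, and 5 instead of 20 lay outside same-strand hosts. All 12 were also bound in the main count, and the mir-35 cluster was not among them. Of the mir-51 family only mir-51 was. With peaks among the strongest 2465 of both replicates, 25 genes were bound, 25 with no transfer RNA gene near and 13 outside hosts. With assignment to the nearest 5′ end only, these values were 15, 15 and 9, on 15 summits, and of the mir-51 family only mir-53 was bound. With hosts counted on either strand, 10 lay outside. A window reaching 500 bp upstream gave 27 genes, and one of 2000 bp gave 47, of which 45 had no transfer RNA gene near, adding let-7, mir-34, mir-71, mir-235 and mir-237 among others. Overlap of the peak interval gave 42, of which 41 had none near. Apart from the single replicates, the share of other genes at these settings is not given here. These counts therefore do not show how microRNA genes stand beside other genes at each setting. No paired analysis was possible because there is 1 group. Depth is unknown, so an unbound gene is one without a listed peak, and weak peaks near rank 2465 could fall on either side.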

Other observations

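The bound genes differed along the numbering of microRNA names, which roughly follows the order of discovery, in a split made after seeing the data. Of 123 genes numbered 1000 or above 10 (8.13%) were bound, and of the 138 others 29 (21.0%). Among the 10 bound genes with high numbers the strongest summit lay a median of 114.5 bp from the 5′ end, from 9 to 319 bp, and downstream of it in 5. Among the 29 others the median was 437.0 bp, from 76 to 999 bp, and in 0 of 29 was it downstream. The gene's own 5′ end was the nearest of all for 9 of the 10 and for 6 of the 29. The 29 include the cluster genes that share summits, and the difference was not tested.

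By chromosome, 9 of 27 microRNA genes on III (33.3%) were bound, 4 of them at the mir-229 summit, against 13.9% of the other genes there. On II 12 of 49 (24.5%) were bound, 7 of them at the mir-35 summit, against 8.93% of other genes. On the X chromosome 5 of 74 (6.76%) were bound, 4 of them at the mir-54 to mir-56 locus, against 9.68% of other genes. The differences were not tested.

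The annotation holds 46 groups of genes that share a seed on some mature product. In the main count a bound gene was in 12 of them, and in 1, the mir-51 family, all genes were bound. The groups overlap, so the 12 are not independent. The pair mir-8186-1 and mir-8186-2 forms the groups AGCAAAG and CUGCUCA, and mir-38 counts in CACCGGG and CCGGUUU.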
